A study of Mus musculus with 145 samples.

Results

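*Rhox5* was higher, and *Rhox1*, *Rhox10* and *Rhox13* of the same X-linked homeobox cluster were lower, in RPG3 cells than in spermatogonial stem cells (SSCs). RPG3 is a class of the authors in cultures that reprogram SSCs to pluripotency, drawn on these same transcriptomes. The 6 genes described here are *Rhox1*, *Rhox5*, *Rhox6*, *Rhox9*, *Rhox10* and *Rhox13*, chosen by name out of 34 genes with a Rhox symbol among the 28692 genes that were counted. *Rhox5* lay between 233 and 1050 CPM in RPG3, a class with high pluripotency markers that the study orders after RPG1 and RPG2, and between 0 and 22.4 CPM in the SSC clusters. *Rhox10* and *Rhox13* lay between 55.6 and 165 CPM and between 101 and 321 CPM in the SSC clusters, and between 0.521 and 30.8 CPM and between 5.86 and 38.1 CPM in RPG3. Every value is of UMIs (unique molecular identifiers, 1 for each captured molecule), and CPM are counts scaled to a total of 1000000 UMIs over the cells summed, after TMM scaling between sums.

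The reproductive homeobox (Rhox) genes encode transcription factors with a paired-like homeodomain. They are arrayed side by side on the mouse X chromosome and are known for expression in testis, ovary and placenta, with different members in germ cells, Sertoli cells and trophoblast. *Rhox5*, first described as *Pem*, is the founding member. It is expressed in embryonic stem cells, the placenta and the Sertoli cells that surround germ cells, and is a known target of silencing by DNA methylation. *Rhox10* is known for its role in the formation of SSCs from their precursors, and RHOX13 protein appears in spermatogonia and early meiotic cells. *Rhox6* and *Rhox9*, also known as *Psx1* and *Psx2*, are closely related copies expressed in placenta and in fetal germ cells.

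On GRCm38, the assembly that mm10 names, the 42 annotated Rhox symbols spanned chrX:37213804-38306028, or 1.092 Mb. In this order lay *Rhox1* (chrX:37213804-37222258, minus strand), *Rhox5* (chrX:37804842-37808876, plus), *Rhox6* (chrX:37826910-37829857, plus), *Rhox9* (chrX:37899097-37901770, minus), *Rhox10* (chrX:38066475-38071691, plus) and *Rhox13* (chrX:38121219-38129967, plus), by the GENCODE annotation. None of the 6 overlapped another annotated gene. The coding sequences of *Rhox6* and *Rhox9* were 90.6% identical, so reads could be split between them and their separate levels are uncertain, whereas the other pairs of members were 43.06% to 49.93% identical. The promoters of the 3 members with the largest changes in RPG3 against SSC1-4 are shown because *Rhox5* and the pair *Rhox10* and *Rhox13* sit in 1 cluster and moved apart. They are the 250 bases before the RefSeq start (GRCm38.p6, plus strand, chrX:37754358-37754607 for *Rhox5*, chrX:38066225-38066474 for *Rhox10* and chrX:38120590-38120839 for *Rhox13*), with each CpG, the site of DNA methylation, in capitals.
Rhox5: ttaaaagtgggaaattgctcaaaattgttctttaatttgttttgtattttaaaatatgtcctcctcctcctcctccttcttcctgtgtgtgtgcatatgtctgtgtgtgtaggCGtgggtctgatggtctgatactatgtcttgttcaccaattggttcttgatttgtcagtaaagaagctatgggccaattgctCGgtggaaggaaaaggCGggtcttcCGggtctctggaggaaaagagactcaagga
Rhox10: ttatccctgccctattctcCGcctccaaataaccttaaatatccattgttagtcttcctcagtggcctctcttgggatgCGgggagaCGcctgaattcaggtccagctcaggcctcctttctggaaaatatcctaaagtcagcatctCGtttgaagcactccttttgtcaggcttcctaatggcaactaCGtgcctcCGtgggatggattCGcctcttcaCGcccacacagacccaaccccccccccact
Rhox13: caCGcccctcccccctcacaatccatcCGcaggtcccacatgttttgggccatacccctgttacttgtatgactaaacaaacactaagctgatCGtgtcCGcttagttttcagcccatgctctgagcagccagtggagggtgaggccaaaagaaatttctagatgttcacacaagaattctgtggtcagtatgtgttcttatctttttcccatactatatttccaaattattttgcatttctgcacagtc
The *Rhox5* and *Rhox13* windows held 4 CpGs each and the *Rhox10* window held 8. Of 32841 RefSeq promoters of this length, 44.4% held 4 or fewer, 59.7% held 8 or fewer, and the median was 6. The RefSeq start of *Rhox5* lies 50234 bases upstream of the GENCODE start given above, so its window is not next to the gene body annotated there, and which start these cells used was not tested. Methylation of these windows was not analysed here.

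All SSC cultures were B6D2F1 (C57BL/6 female by DBA male in the labels, DBA/2 in the study's methods) and carried an Oct4-EGFP or an EGFP transgene. They were established from male mice of 5.5 days post partum and grown on mouse embryonic fibroblast feeders. Cells were picked by mouth pipette from SSC-like and from colonies resembling pluripotent stem cells, so shares of cells are shares of what was picked. The original condition without added compounds gave 46 libraries from days 0 to 27 in 2 reprogramming batches, B1 and B2. The line gPSC-1 (germline-derived pluripotent stem cells) at passages 1 and 15, grown in N2B27 medium with 2iL and not in the SSC medium of the reprogramming cultures, and mouse ESCs of the same cross (mES) gave 1 library each, and scTrio-seq2, which splits 1 cell for RNA and methylome, gave RNA of 8 samples with the 5 compounds named 5C (SGC707, vitamin C, EGCG, Daphnetin and TUDCA) and 5 with the solvent DMSO. Libraries of the original condition held 15975410 to 34609591 UMIs, those of the lines 10833720 to 14807169, 5C samples 5881566 to 10724925 and DMSO samples 3889964 to 8062911. The files held 5553 cells, of which 4339 came from the original condition, 724 from 5C and 365 from DMSO, and 0 pairs of cells held identical counts.

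The UMIs of all cells of 1 class in 1 library were added where the library had 5 or more such cells, and each sum was 1 replicate. The classes are the authors' clusters: SSC1-4 (4 clusters pooled, 36 libraries), RPG1 (7 libraries), RPG2 (3), RPG3 (8) and RPG4 (2), which the study orders along reprogramming, and 4 more, named neural (12), meiotic (6), fibroblast (5) and early-pluripotent (3). The clusters were drawn on these same transcriptomes, so a difference between classes describes them and is not independent of how they were made. The 8 contrasts with SSC1-4 share the SSC1-4 sums. In a sum, fewer cells with a gene and less RNA of it per cell cannot be told apart. Nothing in the labels says that libraries of 1 day came from separate cultures, so p-values measure the spread between these libraries, which may be technical. A gene was called in a class contrast at an adjusted p (edgeR quasi-likelihood test, Benjamini-Hochberg) below 0.01 with a log2 change of at least 1.44 in size, which is 1 on the natural-log scale.

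The labelled cell types were checked against their markers. Spermatogonial markers (10 genes, among them *Dazl*, *Ddx4* and *Zbtb16*) summed to 2011 to 4308 CPM in SSC1-4, 2290 to 2719 in RPG1 and 727 to 1266 in RPG3. Pluripotency markers (8 genes, among them *Pou5f1*, *Nanog* and *Sox2*) summed to 156 to 453 CPM in SSC1-4, 224 to 522 in RPG1, 2531 to 3319 in RPG2, 2148 to 3258 in RPG3 and 922 and 1185 in RPG4. By both lists RPG1 stood with SSC1-4. *Rhox5* is also a gene of Sertoli cells and placenta, so the markers of those cells are given beside it. Of 11 Sertoli genes, 3 had a median over 5 CPM in RPG3. The list summed to 29.8 to 70.3 CPM (median 38.2) in RPG3 against 8.65 to 77.3 (median 36.5) in SSC1-4. Of 8 trophoblast genes, 1 had a median over 5 CPM in RPG3. That list summed to 2.81 to 64.1 CPM (median 31.7) in RPG3 against 4.43 to 53.7 (median 23.9) in SSC1-4. The part of either cell type in the *Rhox5* level was not otherwise tested.

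*Rhox5* had a median of 3.46 CPM in SSC1-4, with a lowest library at 0 and a highest at 22.4. In RPG2 the 3 libraries held 380, 471 and 533 CPM. In RPG3 the lowest library held 233 CPM, the median was 567 and the highest held 1050. No RPG2 or RPG3 library came near the highest SSC1-4 library. The log2 change over SSC1-4 was 6.34 (SE 0.49, adjusted p = 1.72e-19) in RPG2 and 6.64 (SE 0.42, adjusted p = 3.12e-25) in RPG3, so *Rhox5* rose 81.1-fold and 99.7-fold over all libraries. Within the 2 libraries that held both classes, the log2 change was 4.34 in RPG2 and 4.29 in RPG3 with the library as a block, so *Rhox5* rose there by less. RPG2 and RPG3 did not differ past the limits in *Rhox5*, with a log2 difference of 0.30 (SE 0.84, adjusted p = 0.913). Both batches held the rise, since RPG3 *Rhox5* was 233 to 577 CPM in the 5 libraries of B1 and 601 to 1050 in the 3 of B2, while SSC1-4 reached at most 21.7 and 22.4 CPM in B1 and B2. All RPG2 libraries were of B2.

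**Figure D1:**
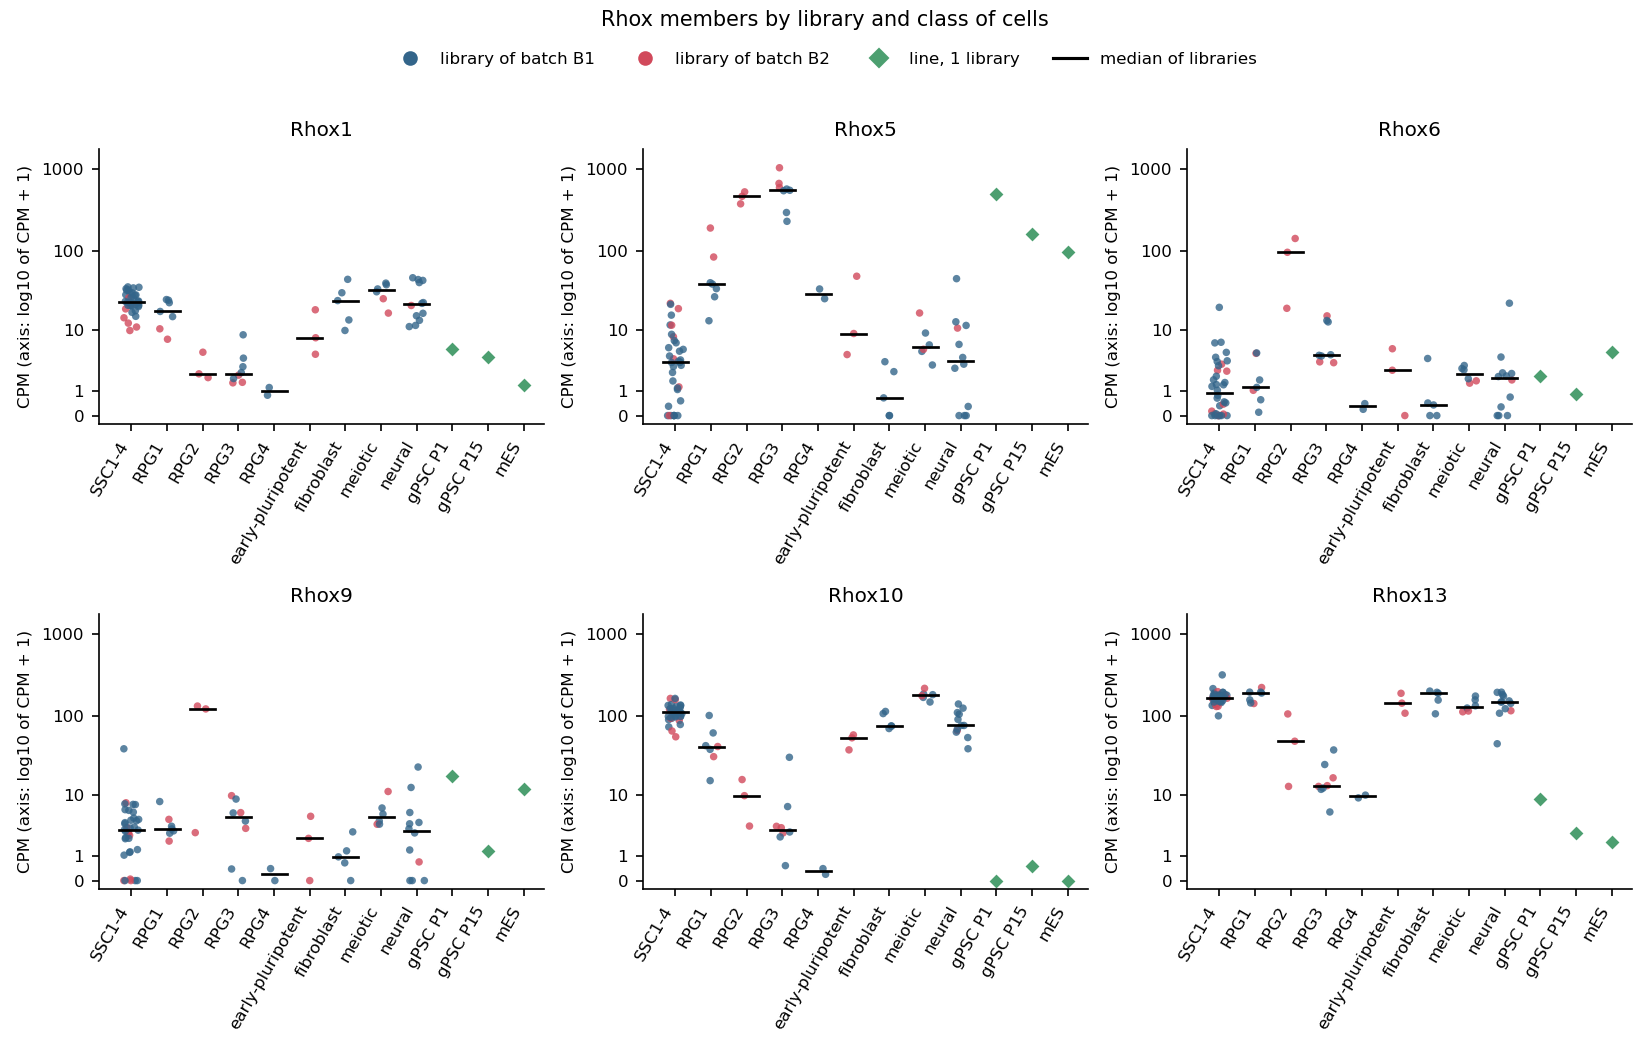
Level of each of the 6 Rhox genes by class, as log10(CPM + 1). Each point is the sum of 1 library and class with at least 5 cells (blue, batch B1, and red, batch B2), the black bar is the median over libraries, and green diamonds are the gPSC-1 passages and mES, 1 library each and scaled apart from the rest. *Rhox5* stands above 232 CPM in RPG2, RPG3 and the first gPSC passage, where *Rhox10* and *Rhox1* lie below every SSC1-4 library, and *Rhox10* and *Rhox1* are lowest of the classes in RPG4.

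In RPG1, the class next to SSC1-4, *Rhox5* held 13.3, 27.1, 34.3, 39.1, 40.7, 84.7 and 192 CPM in the 7 libraries. Over all libraries this was called higher than SSC1-4, with a log2 change of 3.43 (SE 0.44, adjusted p = 1.58e-08). It was the only 1 of the 6 members called in RPG1, where 1.04% of all 20030 tested genes were called higher and 0.369% lower. Libraries with RPG1 cells were mostly not those with SSC1-4 cells, and the call did not hold within them. Only 2 libraries had at least 5 cells of each, and there *Rhox5* was 13.3 and 27.1 CPM in RPG1 against 15.8 and 21.7 CPM in SSC1-4, with a log2 difference of 0.04 (SE 0.49, adjusted p = 0.999) with the library as a block and 0.12 without.

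*Rhox5* in SSC1-4 and RPG1 cells moved with the library they came from. The 4 SSC1-4 sums from libraries that also held an RPG sum had 15.8 to 22.4 CPM, and the 32 others had 0 to 11.7 CPM, so these ranges did not overlap. *Rhox10* and *Rhox13* did not split this way, at 88.6 to 121 against 55.6 to 165 CPM and at 162 to 186 against 101 to 321 CPM. *Rhox5* in RPG1 was 15.1% to 36.2% (median 22.7%) of its level over all cells of the same library, and in SSC1-4 cells of those 4 libraries it was 18.5% to 26.3% (median 21.4%). The 2 RPG1 libraries with the most *Rhox5*, at 192 and 84.7 CPM, were the 2 whose whole libraries held the most, at 660 and 371 CPM. Other pluripotency genes were present in the same cells at a fraction of their library level, namely *L1td1* at 5.39% to 14.3% in RPG1 and 5.03% to 8.50% in SSC1-4, *Nr0b1* at 3.44% to 13.2% and 2.46% to 9.68%, and *Tdgf1*, a Nodal co-receptor, at 15.9% to 32.5% and 8.71% to 24.1%. The share of *Rhox5* exceeded that of *L1td1* and of *Nr0b1* in 7 of 7 RPG1 and 4 of 4 SSC1-4 libraries, and that of *Tdgf1* in 5 of 7 and 3 of 4. The part of RNA carried over between cells of 1 library in these levels was not tested.

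**Figure D2:**
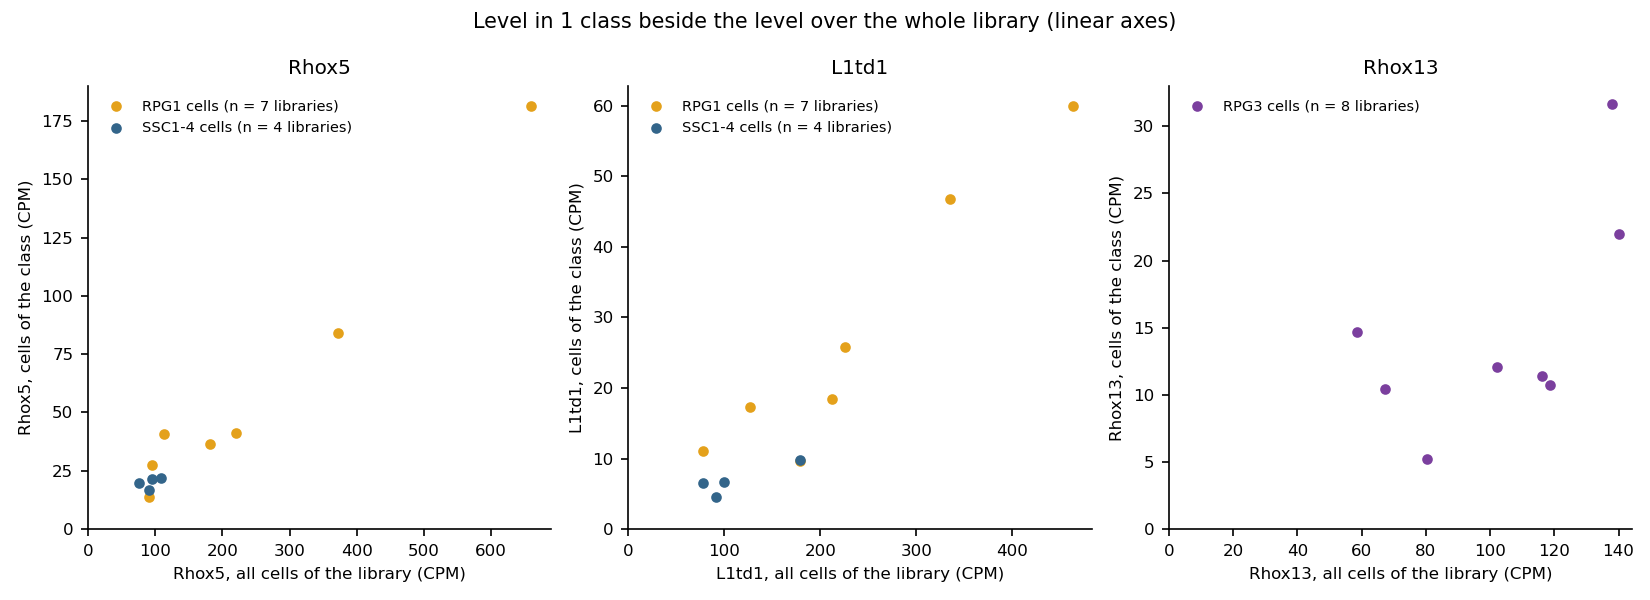
Level of *Rhox5* and *L1td1* in RPG1 cells (7 libraries) and SSC1-4 cells (4 libraries) and of *Rhox13* in RPG3 cells (8 libraries) on the vertical axis, against the level over all cells of the same library on the horizontal axis, both in CPM on linear scales. Each point is 1 library; *Rhox5* in RPG1 cells was 15.1% to 36.2% of the library level.

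The germ cell members *Rhox10*, *Rhox13* and *Rhox1* fell in RPG2 and RPG3, where *Rhox5* rose. *Rhox10* had a median of 112 CPM in SSC1-4 (55.6 to 165) and stood at 3.62, 9.85 and 16 CPM in the 3 RPG2 libraries. In RPG3 it had a lowest library at 0.521, a median of 3.16 and a highest at 30.8 CPM. Neither RPG2 nor RPG3 overlapped with SSC1-4. The log2 change was -3.51 (SE 0.50, adjusted p = 8.95e-09) in RPG2 and -4.05 (SE 0.32, adjusted p = 8.13e-20) in RPG3. In RPG1 *Rhox10* was intermediate, at 15.5, 31.4, 38.8, 42.1, 43.1, 62.1 and 102 CPM, and its log2 change of -1.23 (SE 0.27, adjusted p = 0.00161) passed the p limit and missed the fold limit. Without the library of day 23 replicate 2, which held the 102 CPM, the change was -1.53 (adjusted p = 5.43e-07) and was called.

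*Rhox13* was not called in RPG1 and fell in RPG2 and RPG3. It had a median of 168 CPM in SSC1-4 (101 to 321), and 143, 145, 158, 192, 197, 198 and 225 CPM in the 7 RPG1 libraries, with a log2 difference of 0.08 (SE 0.17, adjusted p = 0.883). The 3 RPG2 libraries differed among themselves, at 13.1, 49.0 and 107 CPM. In RPG3 the lowest library held 5.86 CPM, the median was 13.2 and the highest 38.1, all below every SSC1-4 and RPG1 library. The log2 change against SSC1-4 was -1.61 (SE 0.30, adjusted p = 7.28e-06) in RPG2 and -3.33 (SE 0.22, adjusted p = 1.50e-24) in RPG3. Without day 14 replicate 6, the RPG2 change was -1.13 and under the fold limit. *Rhox1* resembled *Rhox10*, with 9.89 to 36 CPM (median 23) in SSC1-4, 7.53 to 25 in RPG1, 1.90 to 4.92 in RPG2 and 1.51 to 8.65 in RPG3, and log2 changes of -2.96 (adjusted p = 1.38e-06) in RPG2 and -2.93 (adjusted p = 1.85e-13) in RPG3.

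The *Rhox10* and *Rhox13* UMIs left in RPG3 sums were small parts of the library levels, as were those of other germ cell genes. *Rhox10* in RPG3 was 4.31% to 34.5% (median 11.1%) of its level over all cells of the same library and *Rhox13* 6.52% to 25.1% (median 13.7%). *Ddx4*, an RNA helicase of germ cells, was at 8.96% to 30.5% (median 18.6%) and *Dazl*, an RNA-binding protein of germ cells, at 15% to 28.9% (median 22.1%). *Rhox10* exceeded *Ddx4* by this measure in 3 of 8 libraries and *Rhox13* in 2 of 8, and each exceeded *Dazl* in 1 of 8. Whether the remaining UMIs came from RPG3 cells themselves was not tested.

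*Rhox6* and *Rhox9* were highest in RPG2. *Rhox6* held 96.9, 143 and 19.3 CPM in the RPG2 libraries of day 12 replicate 2, day 14 replicate 5 and day 14 replicate 6, against a median of 0.901 CPM (0 to 19.9) in SSC1-4. *Rhox9* held 123, 133 and 2.84 CPM in the same 3 libraries, against a median of 3.15 CPM (0 to 39.4) in SSC1-4. The third library was thus far below the others for both genes, and the ranges of RPG2 and SSC1-4 overlapped. *Rhox6* rose by 5.48 on the log2 scale (SE 0.70, adjusted p = 3.85e-10) and *Rhox9* by 4.41 (SE 0.64, adjusted p = 1.47e-08). In RPG3, *Rhox6* was between 3.41 and 15.4 CPM, with a log2 change over SSC1-4 of 2.01 (SE 0.62, adjusted p = 0.00450), which was not called without day 18 replicate 5 (1.79, adjusted p = 0.0192) or without day 20 replicate 2 (1.85, adjusted p = 0.0163). *Rhox9* did not differ past the limits in RPG3 (0 to 9.85 CPM, log2 difference 0.22, adjusted p = 0.775). In the 2 libraries that held both RPG2 and SSC1-4 cells, 3 members were called with the library as a block, and *Rhox1*, *Rhox9* and *Rhox13* were not (log2 changes of -2.51, 2.32 and -2.15, adjusted p = 0.0690, 0.0710 and 0.0129). With the library as a block *Rhox6* was not called in RPG3 (2.89, adjusted p = 0.20). The trophoblast list summed to 2.46 to 7.80 CPM in the 3 RPG2 libraries, with 0 of its 8 genes over a median of 5 CPM.

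All 6 members were called in RPG2 against SSC1-4, 3 higher and 3 lower, where 7.9% of all genes were called higher and 9.07% lower. In RPG3, 2 were called higher and 3 lower, against 11.1% and 14.5% of all genes. The median log2 change over all genes in RPG3 was -0.25. RPG4 had low *Rhox5* as well as low germ cell members. It had 0 members called higher and 3 lower, against 6.71% and 7.04% of all genes. *Rhox10* had 1 UMI in each of its 2 libraries (0.193 and 0.399 CPM, adjusted p = 6.87e-12), *Rhox13* 9.19 and 10.0 CPM (log2 change -4.14, SE 0.46, adjusted p = 4.01e-12) and *Rhox1* 0.770 and 1.2 CPM (log2 change -4.66, SE 0.74, adjusted p = 3.73e-07). *Rhox5* in RPG4 was 34 and 25.6 CPM, above the highest SSC1-4 library, with a log2 difference of 2.38 (SE 0.78, adjusted p = 0.0148) that was not called. The difference was called with batch as a covariate (2.74, adjusted p = 0.00189) and with DESeq2's size factors (2.52, adjusted p = 0.00865). No library held sums of both RPG4 and SSC1-4, so class and library cannot be told apart in the RPG4 contrasts.

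The steps between RPG classes follow the order of the study, which is not the order of the days. From RPG1 to RPG2 all 6 members were called, 3 higher (4.92% of all genes) and 3 lower (7.18%), with log2 changes of 2.91 for *Rhox5* (adjusted p = 0.00325), 5.41 for *Rhox6*, 4.45 for *Rhox9*, -2.28 for *Rhox10*, -1.69 for *Rhox13* and -2.51 for *Rhox1*. The *Rhox5* call was lost without day 12 replicate 2 (adjusted p = 0.0126) and the *Rhox13* change fell under the fold limit without day 14 replicate 6 (-1.21). No library held both classes. The RPG1 sums were of days 18, 20 and 23 and the RPG2 sums of days 12 and 14. Class and day cannot be told apart in this step. All 3 RPG2 libraries and 2 of the 7 RPG1 libraries were of B2, and with batch as a covariate the *Rhox5* change was 2.3 (adjusted p = 0.0202) and was not called. With sums per batch and day neither *Rhox5* (log2 change 3.0, adjusted p = 0.0254) nor *Rhox1* (-2.25, adjusted p = 0.0358) was called, and *Rhox5* was not by the DESeq2 test (2.92, adjusted p = 0.0263). From RPG2 to RPG3, *Rhox9* fell by 4.19 (SE 0.97, adjusted p = 0.00287) and *Rhox13* by 1.72 (SE 0.28, adjusted p = 1.36e-05) on the log2 scale, 2 of 6 members lower against 0.934% of all genes and 0 higher against 0.939%. Both calls were lost without day 14 replicate 5 (adjusted p = 0.0270 and 0.123), and that of *Rhox9* without day 12 replicate 2 (adjusted p = 0.0226). *Rhox6* had a log2 difference of -3.48 (adjusted p = 0.0377) and was not called. Fitted on RPG2 and RPG3 alone, *Rhox6* was called (-3.50, adjusted p = 0.00144) and *Rhox13* was not (adjusted p = 0.0684).

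RPG1 and RPG3 were found side by side in 7 libraries, so this step can be read within libraries. There *Rhox5* rose from 13.3 to 233 CPM in day 23 replicate 1 and from 192 to 1050 CPM in day 18 replicate 5, the lowest and highest libraries of both classes. It was higher in RPG3 in 7 of 7 libraries, and *Rhox1*, *Rhox10* and *Rhox13* were lower in 7 of 7. With all sums, *Rhox5* rose by 3.21 (SE 0.70, adjusted p = 1.13e-04), and *Rhox1* fell by 2.48 (SE 0.35, adjusted p = 8.16e-09), *Rhox10* by 2.82 (SE 0.34, adjusted p = 3.56e-11) and *Rhox13* by 3.40 (SE 0.24, adjusted p = 1.12e-21) on the log2 scale. That is 1 of 6 members higher, against 6.65% of all genes, and 3 lower, against 10.1%. The 4 calls held with the library as a block.

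**Figure D3:**
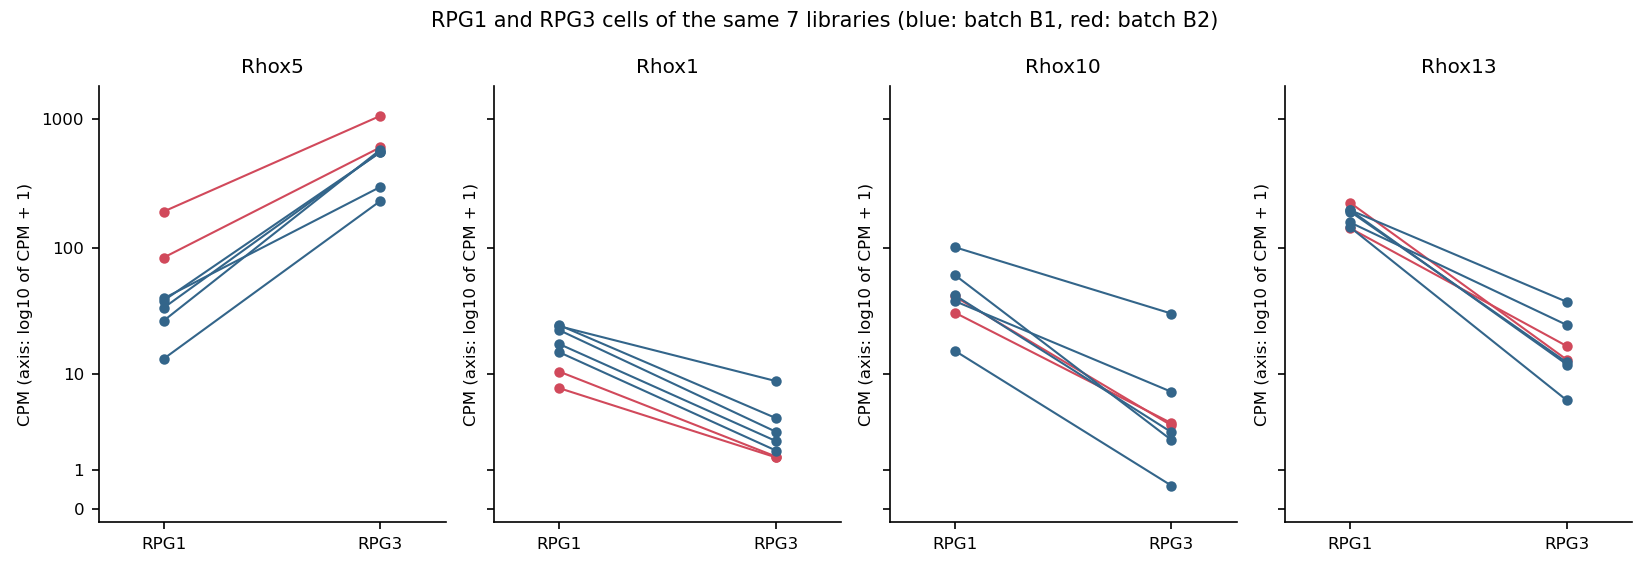
Levels of *Rhox5*, *Rhox1*, *Rhox10* and *Rhox13* in RPG1 and RPG3 cells of the same library, in CPM on a log axis. Each line joins the sums of 1 of 7 libraries; every *Rhox5* line goes up and every line of the other 3 genes goes down.

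RPG4 and RPG3 shared the libraries of day 20 replicates 1 and 2. *Rhox5* was 550 and 557 CPM in their RPG3 cells, 39.1 and 34.3 CPM in their RPG1 cells and 34 and 25.6 CPM in their RPG4 cells, so RPG4 cells of these libraries were at the level of RPG1 cells. In the fit of all classes the log2 difference from RPG3 was -4.26 (SE 1.32, adjusted p = 0.0256) and was not called. In the 2 shared libraries alone it was -4.15, and was called with the library as a block (adjusted p = 9.26e-18) and without (adjusted p = 4.05e-07). *Rhox10* was the only member called in this step over all libraries (1 of 6 lower against 1.78% of all genes, 0 higher against 1.74%), on 2 UMIs in RPG4 (adjusted p = 0.00118), and this call was lost without either RPG4 library (adjusted p = 0.0179 and 0.0573). With sums per batch and day, or fitted on RPG3 and RPG4 alone, *Rhox5* was called (-5.21, adjusted p = 0.00938, and -4.17, adjusted p = 2.88e-05) and *Rhox10* was not (-0.89, adjusted p = 0.470, and -4.39, adjusted p = 0.114), so the member called depended on these settings. The primitive endoderm list summed to 65.5 and 119 CPM in RPG4 and 9.85 to 31.2 CPM in RPG3. The trophoblast list summed to 54.1 and 79.1 CPM in RPG4 and 2.81 to 64.1 CPM in RPG3. Of that list *Krt7*, a keratin of simple epithelia, was at 48.1 and 76.7 CPM in RPG4 and 0.703 to 11.3 CPM in RPG3.

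Outside the RPG classes no member was past the limits against SSC1-4. None of the 6 was called, by edgeR or by DESeq2, in the fibroblast class (3.78% of all genes higher, 0.015% lower), the early-pluripotent class (0.225%, 0.0499%), the meiotic class (0.334%, 0.0899%) or the neural class (2.15%, 0.364%). At an unadjusted p under 0.05 the early-pluripotent class had *Rhox5*, *Rhox10* and *Rhox1*, the meiotic class *Rhox10* and the fibroblast class *Rhox5*. The early-pluripotent class held *Rhox5* at 4.54, 9.01 and 49.0 CPM, a log2 difference of 1.89 (SE 0.63, adjusted p = 0.123), and *Rhox10* at 38.2, 54.0 and 58.7 CPM, a log2 difference of -1.16 (SE 0.40, adjusted p = 0.133). In the 2 libraries that held both classes the *Rhox10* difference was -0.11 with the library as a block, and without 1 library the *Rhox5* difference fell as low as 0.22. Its 2 clusters differed in *Rhox5* per cell, with a median of 47.8 CPM over 77 cells of Early-pluripotency 2 and of 0 over 119 cells of Early-pluripotency 1, but only 1 library held at least 5 cells of the former. Meiotic cells held the highest median of *Rhox10* of any class, with 149 to 220 CPM (median 181) in 6 libraries, a log2 difference of 0.69 (SE 0.25, adjusted p = 0.126), and it was higher than in SSC1-4 in 5 of 5 libraries that held both, by 0.52 (SE 0.24, adjusted p = 0.508) with the library as a block. *Rhox5*, at 3.14 to 16.8 CPM, was also higher in 5 of 5 (2.91 with the block, SE 1.27, adjusted p = 0.477). Meiotic *Rhox13* was 113 to 177 CPM (median 130). The fibroblast and neural classes held *Rhox10* at 70.4 to 114 and 39.5 to 141 CPM and *Rhox13* at 107 to 203 and 45.6 to 197 CPM. Both classes also held spermatogonial markers, at 1921 to 2459 and 1558 to 2990 CPM in sum, near the 2011 to 4308 of SSC1-4, and the fibroblast class differed from SSC1-4 in the feeder fibroblast list (318 to 2130 CPM against 34 to 173). By cluster, Neural 3 was lower, with *Rhox10* at 7.25 and 10.6 CPM in 2 libraries, and Fibroblast 2 held 3.82, 5.76 and 71.9 CPM of *Rhox10* in 3.

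In single cells, the *Rhox5* levels of RPG2 and RPG3 were spread over many cells, whereas in SSC1-4 226 of 2265 cells held 85.7% of the *Rhox5* UMIs. Over 261 RPG3 cells, *Rhox5* had a median of 548 CPM, a lower quartile of 57.0, an upper quartile of 915 and a highest cell at 2683.5 CPM. RPG2 cells had a median of 432 CPM, RPG1 cells 33.9, RPG4 cells 18.7 and SSC1-4 cells 0, with the 90th percentile of SSC1-4 cells at 16.9. A level of at least 100 CPM was reached by 177 of 261 RPG3 cells (67.8%), 33 of 47 RPG2 cells (70.2%), 44 of 333 RPG1 cells (13.2%), 17 of 2265 SSC1-4 cells (0.751%) and 0 of 33 RPG4 cells. In RPG3, 37 cells lay between 50 and 200 CPM, near that limit. RPG3 cells thus differed widely among themselves, most of them above 100 CPM and the 10th percentile at 17.2 CPM.

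**Figure D4:**
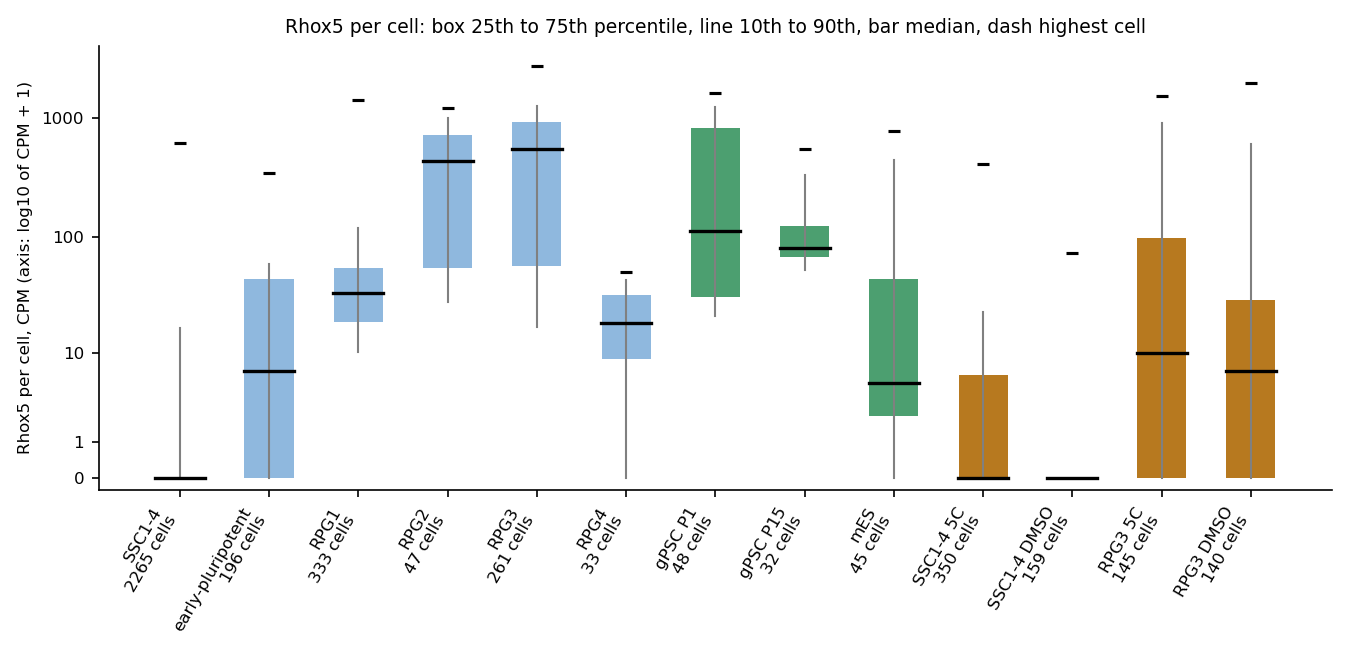
*Rhox5* per cell in CPM for 13 groups of cells. Boxes span the 25th to 75th percentile, lines the 10th to 90th, the bar is the median and the dash the highest cell. RPG2 and RPG3 cells of the original condition have medians of 432 and 548 CPM, and every other class of the original condition has its median at or under 33.9 CPM.

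To compare shares of cells with a UMI between depths, each cell was thinned to 50000 UMIs. *Rhox5* was then found in 12% of SSC1-4 cells (22.9% before thinning) and 6.07% of fibroblast class cells (19%), given as the background although that class also held spermatogonial markers, in 76.3% of RPG1 cells (94.6%), 97.8% of RPG2 (100%), 90.2% of RPG3 (98.5%) and 60.6% of RPG4 cells (81.8%). The median depth was 248474 UMIs in SSC1-4 cells and 238901 in RPG1 cells. *Rhox10* was found in 80.6% of SSC1-4, 49.7% of RPG1, 24.4% of RPG2, 16.5% of RPG3 and 9.09% of RPG4 cells, and in 95.4% of meiotic cells. Before thinning its shares were 90.8%, 70.3%, 72.3%, 49.8% and 36.4% in the 5 classes from SSC1-4 to RPG4, so the order of RPG1 and RPG2 depended on the depth. *Rhox13* was found in 93.9%, 93.3%, 66.7%, 37.0% and 36.4% of SSC1-4, RPG1, RPG2, RPG3 and RPG4 cells (96.8%, 94.9%, 91.5%, 80.1% and 90.9% before thinning). In RPG1, *Rhox10* was found in 49.6% of the 238 RPG1 cells with a *Rhox5* UMI and in 37 of the 74 without, and *Rhox13* in 92.4% and 95.9%. A UMI in a cell is not shown to be its own here, given the library levels above. *Rhox10* per cell was uneven in RPG1, with a median of 9.90 CPM, an upper quartile of 70.3 and a highest cell at 410.6 CPM.

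Established lines held *Rhox5* and almost no *Rhox10*. At passage 15 and in mES, *Rhox5* lay below every RPG2 and RPG3 library. With 1 library each, the values below carry exact 95% Poisson intervals for counting error only, and no test was possible. *Rhox5* was 497 CPM (484 to 510) in gPSC-1 at passage 1, 161 CPM (153 to 169) at passage 15 and 98.0 CPM (92.7 to 103) in mES. *Rhox10* had 0 UMIs at passage 1, which allows up to 0.257 CPM, 5 UMIs or 0.505 CPM at passage 15, and 0 UMIs in mES, which allows up to 0.229 CPM. *Rhox13* was 9.01, 2.83 and 1.98 CPM in this order, *Rhox1* 5.49, 4.24 and 1.37, *Rhox6* 2.06, 0.807 and 4.88, and *Rhox9* 17.9, 1.31 and 12.1. The intervals of *Rhox5* did not overlap, so these libraries differed beyond counting error. With 1 library each this gives no order of the lines. Those of *Rhox1* overlapped between the passages (4.23 to 7.01 and 3.05 to 5.73) and those of *Rhox13* between passage 15 and mES (1.88 to 4.08 and 1.29 to 2.90), so these neighbours did not differ beyond counting error. At passage 1, the 5 highest of 48 cells held 98.1% of the *Rhox13* UMIs and 93.8% of the *Rhox1* UMIs. *Rhox5* varied between cells of a line, with a median of 113 CPM and an upper quartile of 821 CPM over 48 cells at passage 1, and a median of 5.17 CPM over 45 mES cells, of which the 4 highest held 63.9% of all *Rhox5* UMIs.

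Within SSC1-4 no member was called with time. The slope over days 0 to 27 in 36 libraries was called for 0 of 6 members at an adjusted p below 0.05, where 1.32% of genes were called rising and 2.7% falling, and 0 had an unadjusted p under 0.05 or a call by DESeq2. The slopes were 0.0059 log2 units per day for *Rhox10* (SE 0.011, adjusted p = 0.854), 0.00087 for *Rhox13* (SE 0.0083, adjusted p = 0.976) and -0.00071 for *Rhox5* (SE 0.058, adjusted p = 0.997). In SSC3 cells alone (18 libraries, 5 days), *Rhox10* had a slope of 0.088 per day (adjusted p = 0.0440).

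The scTrio-seq2 samples are separate from those on which the clusters were drawn, and their cells were assigned to classes by the authors' classifier. It was trained on the clusters of the original condition and reads expression, so differences between these classes are not independent of how they were made either. Here too *Rhox5* was called higher and *Rhox10* and *Rhox13* lower in RPG3. With 5C, RPG3 cells of 6 samples held *Rhox5* at 17.8, 32.8, 45.9, 364, 380 and 389 CPM, and SSC1-4 cells of 8 samples at 0.603 to 25.4 CPM (median 4.78). With DMSO, RPG3 cells of 2 samples held *Rhox5* at 189 CPM each and SSC1-4 cells of 3 samples at 1.67, 2.03 and 2.64 CPM. RPG3 against SSC1-4 gave log2 changes with 5C of 5.35 for *Rhox5* (SE 0.61, adjusted p = 1.40e-09), -2.58 for *Rhox10* (SE 0.47, adjusted p = 1.65e-05) and -1.08 for *Rhox13* (SE 0.25, adjusted p = 4.14e-04), and with DMSO of 6.77 for *Rhox5* (SE 1.05, adjusted p = 1.58e-06), -4.83 for *Rhox10* (SE 0.79, adjusted p = 4.05e-06) and -3.76 for *Rhox13* (SE 0.50, adjusted p = 7.67e-08). *Rhox1* did not pass the filter on low counts in any fit of these samples. Of the 5 other members, 1 was called higher and 2 lower with 5C, where 23.2% and 22.5% of all genes were, at an adjusted p below 0.05. With DMSO 2 were called higher and 2 lower, beside 19.7% and 18.5% of all genes, and the other one higher was *Rhox6* (adjusted p = 0.0241), which had 0 UMIs in the DMSO SSC1-4 sums and was 0 and 2.96 CPM in the DMSO RPG3 sums, so this call rests on 1 sample. RPG3 against RPG1 gave 1 member higher and 2 lower with 5C (17% and 16.1% of all genes) and 0 higher and 2 lower with DMSO (13% and 11.1%). With DMSO *Rhox5* had a log2 difference of 2.83 (SE 1.14, adjusted p = 0.0656) in this fit without a term for the sample. The same 2 DMSO samples held both classes, with *Rhox5* at 30.8 and 34.7 CPM in RPG1 cells and 189 CPM in RPG3 cells of each. RPG1 against SSC1-4 gave 0 of 5 members called by edgeR with 5C (0.139% of all genes higher, 0.00731% lower) and 0 of 5 with DMSO (3.49% and 1.81%). *Rhox5* had log2 differences of 1.31 (SE 0.74, adjusted p = 0.757) and 3.94 (SE 1.35, adjusted p = 0.0766) in them, and was the only 1 of the 5 with an unadjusted p under 0.05, with DMSO. Pooled over samples, these RPG3 cells less often reached 100 CPM than the 67.8% of the original condition, a difference that was not tested and mixes samples with cells, since the 3 samples of 5C with low *Rhox5* gave 32, 32 and 12 of the 145 cells. The median RPG3 cell held 9.97 CPM of *Rhox5* with 5C and 6.75 CPM with DMSO, 35 of 145 (24.1%) and 25 of 140 (17.9%) reached 100 CPM, and the 14 highest cells of each held 65.6% and 80.8% of the *Rhox5* UMIs. *Rhox6* was also found in RPG2 cells of the 5C samples, where 24 cells had a median of 12.4 CPM and a 90th percentile of 165 CPM. *Rhox5* was low in these 24 cells, with a median of 7.20 CPM against 432 in RPG2 cells of the original condition. Of the 24 cells 2 (8.33%) reached 100 CPM against 70.2%. These cells are pooled over samples and are not replicates, and the difference was not tested.

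The comparison of 5C with DMSO asked whether the compounds changed the family within a class. 5C samples were taken on days 12, 14 and 16 and DMSO samples on days 20 and 24, and DMSO replicate 5 held 8 cells of day 0 beside 45 of day 24, so treatment and day cannot be told apart. In RPG3 cells *Rhox13* was 73.7, 36.1, 21.1, 59.1, 51.0 and 103 CPM in 5C replicates 1, 3, 5, 6, 7 and 8 and 4.83 and 5.01 CPM in DMSO replicates 1 and 2. The groups did not overlap, and the log2 change was 3.53 (SE 0.59, adjusted p = 7.43e-04). *Rhox13* was the only 1 of 5 tested members called, against 6.36% of genes higher and 9.26% lower. *Rhox5* had a log2 difference of 0.09 (SE 0.83, adjusted p = 0.963), with 3 of the 5C samples above and 3 below both DMSO samples.

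Germ cell markers moved with this *Rhox13* difference. In the same RPG3 cells *Dazl* was 84.5 to 295 CPM with 5C against 36.1 and 39.3 with DMSO, and *Ddx4* was 25.7 to 54.7 CPM against 9.53 and 16.4. The spermatogonial list (862 to 1128 CPM with 5C, 666 and 726 with DMSO) and the Sertoli list (15.02 to 91.0 CPM, 11.04 and 11.2) did not overlap either. Nor did a list of genes of differentiating spermatogonia, at 36.6 to 107 CPM with 5C and 19.6 and 28.1 with DMSO. Over all cells of the samples *Rhox13* was 80.0 to 170 CPM with 5C and 12.5 and 16.5 CPM with DMSO. RPG3 cells were 7 to 54 of 85 to 93 cells in the 5C samples and 74 of 88 and 66 of 90 in the DMSO samples. The RPG3 level as a share of the sample level was 24.9% to 89.5% with 5C and 23.1% and 32.2% with DMSO for *Rhox13*, and 12.1% to 33.5% against 22.1% and 35% for *Dazl*. The part of the other cells of a sample in the *Rhox13* difference was not tested.

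In SSC1-4 cells, 5C and DMSO differed in 3 of 5 tested members. *Rhox1*, which was not tested, was 0 to 2.61 CPM with 5C and 2.95, 3.39 and 3.68 CPM with DMSO, so these ranges did not overlap. *Rhox10* was 11.2 to 62.3 CPM (median 23.3) in 8 samples with 5C and 88.6, 108 and 116 CPM with DMSO, a log2 change of -2.07 (SE 0.32, adjusted p = 5.07e-05), and the groups did not overlap. The spermatogonial list, the feeder fibroblast list and the trophoblast list moved with it without overlap, at 2901 to 3478 CPM with 5C and 3760 to 3967 with DMSO, 7.72 to 47.7 and 48 to 70.2, and 1.27 to 8.75 and 22.7 to 38.5, and their part in the *Rhox10* difference was not tested. *Rhox13* was 101 to 248 CPM with 5C and 69.1, 87.0 and 106 CPM with DMSO, a log2 change of 0.85 (SE 0.22, adjusted p = 0.00818), and this call was lost without DMSO replicate 4 (0.71, adjusted p = 0.0763). *Rhox6* was 0 to 8.44 CPM with 5C and had 0 UMIs in all 3 DMSO samples, so it was at least 15.5-fold higher with 5C, taking 3 counts over the DMSO group as the limit (adjusted p = 0.0119, lost without DMSO replicate 3 or 5, adjusted p = 0.0548 and 0.0534). Of all genes 10.7% were called higher and 10.6% lower in these cells. In RPG1 cells none of 3 tested members was called by edgeR or DESeq2 (2.16% of genes higher, 3.45% lower), and 1, *Rhox10*, had an unadjusted p under 0.05. There *Rhox10* was 9.45, 18.5, 28.3 and 41.4 CPM with 5C and 32.2 and 154 CPM with DMSO (log2 difference -1.94, SE 0.62, adjusted p = 0.0680, and -2.68 with adjusted p = 0.00860 without DMSO replicate 2, which leaves 1 DMSO sample that is assumed to vary like those with 5C).

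**Figure D5:**
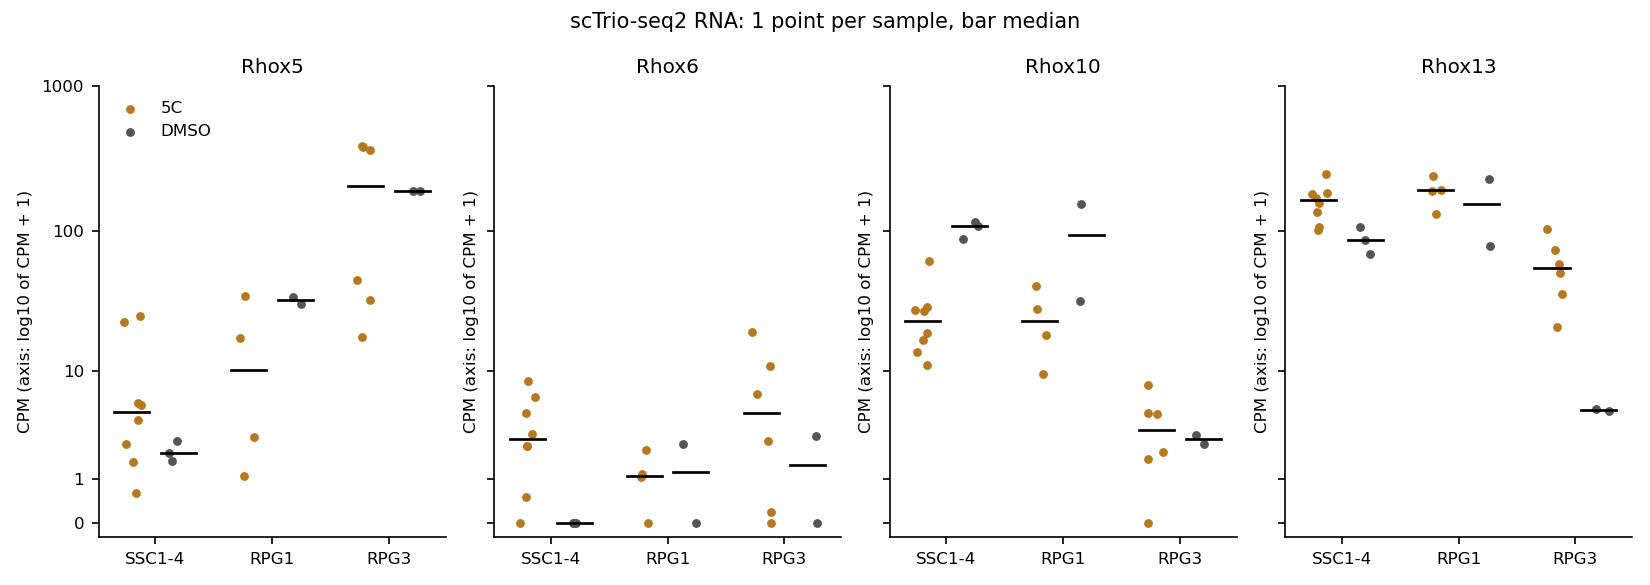
*Rhox5*, *Rhox6*, *Rhox10* and *Rhox13* in SSC1-4, RPG1 and RPG3 cells of the scTrio-seq2 samples with 5C and with DMSO, in CPM. Each point is the sum of 1 sample and class with at least 5 cells. *Rhox13* in RPG3 cells is above 21 CPM in 6 of 6 samples with 5C and near 5 CPM in both with DMSO, and *Rhox10* in SSC1-4 cells is lower in 8 of 8 samples with 5C than in all 3 with DMSO.

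The *Rhox13* effect of treatment differed between classes by the test of the difference itself. With DMSO, however, the RPG3 and RPG1 sums came from replicates 1 and 2 and the SSC1-4 sums from replicates 3, 4 and 5, so class and sample cannot be told apart between RPG3 and SSC1-4 in that arm, nor in its contrasts of RPG3 or RPG1 with SSC1-4 above. With 5C all 6 samples with RPG3 sums also had SSC1-4 sums. The log2 change of 5C over DMSO was larger in RPG3 than in SSC1-4 by 2.68 (SE 0.54, adjusted p = 6.89e-04, where 3.3% of genes were called higher and 5.09% lower) and than in RPG1 by 3.18 (SE 0.61, adjusted p = 0.00363, where 1.05% and 0.709% were called). No other member had such a call, and between RPG1 and SSC1-4 the treatment effect differed for 0 of 5 members (0.563% of genes higher, 1.1% lower), with *Rhox6* at an unadjusted p under 0.05. For *Rhox10* the difference between RPG3 and SSC1-4 was 2.25 (SE 0.85, adjusted p = 0.0932). Over cells of all classes together, *Rhox10* fell by 2.08 (SE 0.53, adjusted p = 0.0182) and *Rhox13* rose by 1.09 (SE 0.35, adjusted p = 0.0468) on the log2 scale, 1 member lower and 1 higher of 5 tested, against 7.34% and 7.65% of genes. Both calls were lost with the replicate number as a block, and that of *Rhox13* without any 1 of 11 of the 13 samples.

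Among the other genes of the cluster, those that passed the test fell. Of 28 other Rhox genes, 19 had at least 100 UMIs over all cells. Of these 19, 0 were called higher in any of the 4 RPG classes against SSC1-4, and 0, 7, 12 and 8 were called lower in RPG1, RPG2, RPG3 and RPG4 (0%, 36.8%, 63.2% and 42.1% of the 19, where 0.369%, 9.07%, 14.5% and 7.04% of all genes were). Their median log2 change in RPG3 was -3.49, beside -0.25 over all genes. *Rhox2a* had a median of 47.9 CPM in SSC1-4 and 3.45 CPM in RPG3, a log2 change of -3.32 (adjusted p = 8.90e-16), and *Rhox7b* 30.1 and 1.05 CPM, a log2 change of -4.51 (adjusted p = 4.00e-21). In the scTrio-seq2 samples, 10 of 10 tested genes of this list were called lower in RPG3 than in SSC1-4 with 5C and 8 of 10 with DMSO, beside 22.5% and 18.5% of all genes. The coding sequences of the Rhox2, Rhox3 and Rhox4 copies are up to 100% identical, and how reads that match several copies were assigned was not tested, so their separate levels are uncertain. Outside the cluster, 77 of 605 tested genes of the X chromosome were higher (12.7%) and 137 lower (22.6%) in RPG3. Of all genes 11.1% were higher and 14.5% lower, so X genes went both ways with a larger share lower. Within 1 Mb of the cluster 3 of 25 were higher and 7 lower.

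Other homeobox genes and silencing factors were described from lists. Of 27 tested paired-like homeobox genes outside the cluster, 3 were higher and 8 lower in RPG3 than in SSC1-4 (median -1.66), or 11.1% and 29.6%, where 11.1% and 14.5% of all genes were, so the share higher was that of all genes. *Otx2*, a homeobox gene of epiblast and forebrain, rose by 8.88 on the log2 scale, *Obox6* by 7.68 and *Hesx1* by 3.85, whereas *Nobox*, an oocyte homeobox gene, fell by 3.86 and *Esx1*, a gene of placenta and testis, fell by 3.22. Of 18 DNA methylation and silencing factors 6 were higher and 0 lower (33.3% and 0%, median 0.53), namely *Dnmt3b*, a de novo methyltransferase (log2 change 2.78), its cofactor *Dnmt3l* (5.30), the demethylating dioxygenases *Tet1* (5.57) and *Tet2* (5.37), and *Trim28* (1.81) and *Zfp57* (3.56), which protect imprints. Of 10 genes that the study lists as *Rhox5* related, chosen on these samples and so no independent evidence of a direction, 4 were higher and 5 lower (40% and 50%, median -0.90). *Tsx* (4.69), *Pramel7* (4.17), *Dnmt3b* and *Dnmt3l* were higher, and *Eppin* (-5.89), *Xlr4c* (-3.63), *Rhox1*, *Rhox10* and *Rhox13* were lower.

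Genes outside the cluster with the pattern most like each member were found by the Pearson correlation of log2(CPM + 1) over 82 sums of libraries and classes, which share libraries and depth, as a description with no test. For *Rhox5* these were *L1td1* (r = 0.920, Spearman 0.859), *Nr0b1* (r = 0.917) and *Tdgf1* (r = 0.915). For *Rhox10* they were *A230065H16Rik* (r = 0.928, Spearman 0.803), *Fkbp6* (r = 0.927, Spearman 0.669), a gene of meiosis and piRNA biogenesis, and *Gtsf1* (r = 0.924, Spearman 0.771), a piRNA factor. By Spearman *Fkbp6* was only at rank 138. For *Rhox13* they were *8030474K03Rik* (r = 0.925), *Tex11* (r = 0.922), an X-linked meiotic gene, and *Xlr3c* (r = 0.921), but their Spearman coefficients were 0.397, 0.510 and 0.611, and where the difference comes from was not tested. Among the members, *Rhox10* had r of 0.885 with *Rhox1* and 0.886 with *Rhox13* (Spearman 0.35), *Rhox5* had r of -0.72 with *Rhox10* (Spearman -0.48) and -0.67 with *Rhox13* (Spearman -0.36), and *Rhox6* and *Rhox9* had r of 0.518.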

How the data were processed

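Modified STRT-seq and the RNA arm of scTrio-seq2 gave single-cell transcriptomes, and the files deposited by the authors hold whole UMI counts of genes in single cells, beside the cluster, batch and library of each cell. Per the labels and the paper's methods, reads were aligned to mm10 with STAR 2.7.2b and assigned to genes with featureCounts 2.0.0. The strand setting of the assignment is not given in the sources used here. The authors left out cells by their own filters. No cell was removed or reassigned here, and no doublet caller was run. The classes of the scTrio-seq2 cells are the authors' scPred predictions, and unpredicted cells entered only the fit over all classes. Methylomes and bulk samples were not used here.

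For each library, the counts of the cells of 1 class were added where it had 5 or more. The sums were tested by quasi-likelihood (glmQLFTest after filterByExpr and TMM) in edgeR 4.0.16 and R 4.3.3, all 9 classes in 1 fit without covariates, and each class of the scTrio-seq2 samples in its own fit. Contrasts between classes of these samples, and the differences of treatment effects between classes, came from 1 joint fit of the RPG3, RPG1 and SSC1-4 sums, with a term for each class and treatment and none for the sample. Adjusted p-values are Benjamini-Hochberg over all genes tested. Calls needed an adjusted p below 0.01 and a natural-log fold change of at least 1 between classes, and an adjusted p below 0.05 for day and treatment. Levels are CPM of these sums on TMM-scaled library sizes, except the shares of a library or sample level, which use plain CPM. Where a group had 2 sums (RPG4, and RPG3 and RPG1 with DMSO), its spread was estimated mainly across the other sums and genes. Scripts were tested on simulated counts. For shares, cells were thinned to 50000 UMIs, which left out 165 of 2265 SSC1-4 cells, 21 of 333 RPG1 cells and 7 of 261 RPG3 cells. Intervals and limits (95%, or 3 counts for a count of 0) cover counting error only. Alternatives were DESeq2 1.42.0, no filter on low counts, at least 10 cells, batch as a covariate, and the library or replicate number as a block. Libraries were also left out in turn, between classes only those of the class with fewer sums. Libraries that hold both classes are the same libraries, so a block on the library pairs cells of 1 preparation.

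Named were the 6 members, of which *Rhox1* passed the filter on low counts in no scTrio-seq2 fit, other Rhox genes with at least 100 UMIs and, for *Rhox5*, *Rhox10* and *Rhox13*, the 3 genes outside the cluster with the highest correlation. Genes of lists and markers named beside them, and the clusters singled out, were chosen after their values were seen. The members and lists were chosen with earlier results of these data known. Promoter sequences are from RefSeq on GRCm38.p6, where 4 of 6 members matched, and positions from GENCODE on GRCm38. Other values were computed in Python 3.11 with pandas 2.3.3 and scipy 1.17.1.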

Additional observations from a re-analysis of the deposited data

Results flagged for a closer look

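Within groups of 4 to 10 libraries or samples, 11 of 54 groups tested held a member value set far apart from the others by Dixon's criterion, and chance gives about 1 in 20. *Rhox5* in RPG1 was highest in day 18 replicate 5, at 192 CPM with the next library at 84.7. Day 23 replicate 2 stood apart in RPG3 for *Rhox10*, at 30.8 CPM with the next at 6.98, and for *Rhox1*, at 8.65 CPM with the next at 4.02. *Rhox9* in RPG1 was highest in day 20 replicate 1 at 8.19 CPM, and *Rhox6* in the fibroblast class was highest in day 8 replicate 1 at 3.97 CPM.

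In the scTrio-seq2 samples, *Rhox5* over all classes was highest in 5C replicate 5, at 289 CPM with the next at 80.9, and *Rhox10* in SSC1-4 cells was highest in the same sample, at 62.3 CPM with the next at 29.2. *Rhox9* in SSC1-4 cells was highest in 5C replicate 7 at 23.7 CPM. *Rhox6* over all classes was at 9.70 CPM in DMSO replicate 2 and at 0 in the other DMSO samples. *Rhox1* was at 1.58 CPM in RPG1 cells of 5C replicate 6 and at 0.668 CPM in RPG3 cells of 5C replicate 1, and at 0 in the other 5C samples of those classes.

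The effect of treatment on *Rhox13* differed between classes by the test of the difference, by 2.68 on the log2 scale between RPG3 and SSC1-4 and by 3.18 between RPG3 and RPG1. The days of the treatments differed too, and germ cell markers moved with the RPG3 value, as given in the text above. Their part was not tested.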

How the results depend on the processing

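No direction of a called result reversed under any alternative run. The class contrasts of the scTrio-seq2 samples, and the differences of treatment effects between classes, were fitted in 1 setting only. For contrasts between classes of the original condition, libraries were left out only from the class with fewer sums. The count of called members in RPG1 against SSC1-4 was 1, and was 0 in the libraries that hold both classes, with the library as a block and without, 2 with an adjusted p below 0.05 and no fold limit, and 1 to 2 without each library. In RPG2 against SSC1-4 it was 6, and 3 with the library as a block. The count was 2 in the same libraries without the block and 5 to 6 without each RPG2 library. In RPG3 against RPG2 it was 2, and 1 with sums per batch and day and 0 to 2 without each library. In RPG4 against RPG3 it was 1, and 0 with at least 10 cells, 2 with an adjusted p below 0.05 and no fold limit, and 0 to 0 without each library. The day slope in SSC1-4 gave 0, and 1 in SSC3 cells alone. The 5C comparison gave 0 in RPG1 cells, and 1 with no filter on low counts and 0 to 1 without each sample, and 2 over all classes, and 0 with the replicate number as a block and 1 to 2 without each sample. The cause of these differences was not tested, but fewer sums entered where libraries were left out.

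The replicate numbers of 5C and DMSO share only a number. A block on it left 2 calls in SSC1-4 cells. No paired analysis was possible because RPG3 and RPG1 cells shared fewer than 2 replicate numbers between treatments. A block on the library changed no other count of calls by over 1.5 times. The alternatives that compare only libraries with both classes were chosen after seeing the data. With those libraries or samples left out in turn, 675 of the log2 changes of single members stayed on their side of the limits and 24 were no longer past them. Another 3 passed them newly, and 53 that were called in neither fit changed sign. Between classes, those were only the libraries of the class with fewer sums. Low counts limit *Rhox6* and *Rhox9* outside RPG2 and *Rhox10* in RPG4. Of the shares of cells with a UMI, 72 of 90 lay outside the interval of the thinned share when depth or the UMI minimum was changed.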
